A study of Mus musculus with 36 samples.

Results

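The mouse heart expresses potassium channels of several families whose currents set the resting potential and shape late repolarization. The 10 genes described here were Kcnj2, Kcnj3, Kcnj5, Kcnj8, Kcnj11 and Kcnj12 of the inward rectifiers, Abcc9 as the regulatory subunit of one of them, Kcnk3 of the 2-pore (K2P) channels, and Kcnn2 and Kcnn3 of the small conductance calcium-activated (SK) channels. They were taken by symbol from the tables of gene counts and transcript levels, where they were 10 of 55291 symbols, and all 10 passed the filter on low counts that left 19231 genes for testing.

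The RNA was from CUG960 mice, left ventricle and atria being taken separately. This is a model of myotonic dystrophy type 1, labelled TREDT960I (Hom)/MHCrtTA (Hem). The mice carry a human DMPK transgene with 960 interrupted CTG repeats behind a tetracycline response element, and a reverse transactivator driven by the cardiomyocyte α-myosin heavy chain promoter, so that doxycycline chow (dox) turns on expanded CUG (CUGexp) RNA in cardiomyocytes. The +dox cohort was on dox from postnatal day 1, the –dox cohort never received it, and the +/–dox cohort was on dox from postnatal day 1 until 9 weeks. In the remaining 3 cohorts dox was continued, and AAV9 vectors were injected into the tail vein at 9 weeks. The vectors carried cDNAs of human MBNL1, MBNL2 or both, splicing factors that CUG repeats bind, behind the human TNNT2 promoter, which is active in cardiomyocytes. Every animal was 21 weeks old at collection, and each of the 6 cohorts had 3 libraries per chamber, 36 in all. By the study's list of samples the atrial and ventricular libraries of 1 cohort and replicate number came from the same animal. Every cohort carried both transgenes. Dox chow and CUGexp RNA changed together in the comparisons of –dox and +/–dox with +dox mice. Vector and MBNL protein changed together in each MBNL cohort against +dox. Neither pair can be told apart here. Between the MBNL cohorts and +/–dox mice, dox chow, CUGexp RNA, vector and MBNL protein all differed at once. A control vector was not analysed here.

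The libraries held between 55.0 and 97.1 M estimated counts. In each chamber the library names fell into 2 sets by their leading digits, here set A (replicates 1 and 2 of 5 cohorts) and set B (replicate 3 of those cohorts and every MBNL1+MBNL2 library). The 10 libraries of replicate 3 outside the MBNL1+MBNL2 cohort were also the ones with Xist RNA, so the library set and sex cannot be told apart within a cohort. By the study's list of samples the MBNL1+MBNL2 animals were all male. Comparisons with that cohort therefore differ in the share of females and of set B. Ventricular MBNL1 replicate 1 had 16885 genes above 0, against 20578 to 24041 in the other libraries. The chambers matched their labels. The summed level of 5 atrial markers was 92.2 to 1007 TPM (a level scaled for transcript length and for library size) in ventricular libraries and 40261 to 61759 TPM in atrial ones. Of 5 ventricular markers, Myl2, the ventricular regulatory light chain, ranged from 28.7 to 581 TPM in atria and from 14193 to 20122 TPM in ventricle. Myl3 and Irx4 were likewise lower in every atrial than in every ventricular library. The other markers of that list overlapped between the chambers. Myh6 was at 7429 to 11274 TPM in atria and 4570 to 7544 TPM in ventricle, and Tnnt2 at 4801 to 7829 and 4510 to 7540 TPM.

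Kcnj3 and Kcnj5 encode GIRK1 and GIRK4, which together form the channel that G protein βγ subunits open when vagal acetylcholine binds the M2 receptor, and which slows the atria and the nodes. Kcnj2 and Kcnj12 encode Kir2.1 and Kir2.2, the pores of the inward rectifier current that holds the resting potential of working myocytes. Kcnj11 and Kcnj8 encode Kir6.2 and Kir6.1, the pores of ATP-sensitive channels, and Abcc9 and its relative Abcc8 encode the sulfonylurea receptors SUR2 and SUR1 that surround those pores. Kcnj8 and Abcc9 are also known as markers of pericytes, the cells wrapped around capillaries. Kcnk3 encodes TASK-1, a background K2P channel, and Kcnn2 and Kcnn3 encode the SK2 and SK3 channels, which calcium opens through bound calmodulin.

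On GRCm38, Kcnj3 (ENSMUSG00000026824.11) lies on chromosome 2 between 55435970 and 55598145 and Kcnj5 (ENSMUSG00000032034.6) on chromosome 9 between 32314707 and 32344350. Kcnj8 (ENSMUSG00000030247.9, chromosome 6, 142564837 to 142571614) and Abcc9 (ENSMUSG00000030249.15, chromosome 6, 142587862 to 142702315) are neighbours on the minus strand, 16247 bp apart. Upstream sequence of these 4 genes is shown because they had the largest differences between the chambers and because the paired genes form channels together. The bases lie before the RefSeq transcription start, in the direction of transcription and outside the GENCODE gene. Kcnj3 is at chr2:55435720-55435969 on the plus strand. Kcnj5 is at chr9:32344351-32344594, Kcnj8 at chr6:142571615-142571864 and Abcc9 at chr6:142702316-142702524, each on the minus strand. Capitals mark the letters AGGTGT, a T-box motif, on the opposite strand.
Kcnj3: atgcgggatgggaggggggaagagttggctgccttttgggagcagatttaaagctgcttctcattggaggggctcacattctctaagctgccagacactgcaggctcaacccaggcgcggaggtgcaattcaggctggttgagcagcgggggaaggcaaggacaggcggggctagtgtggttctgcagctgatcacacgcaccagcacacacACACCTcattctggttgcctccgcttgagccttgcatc
Kcnj5: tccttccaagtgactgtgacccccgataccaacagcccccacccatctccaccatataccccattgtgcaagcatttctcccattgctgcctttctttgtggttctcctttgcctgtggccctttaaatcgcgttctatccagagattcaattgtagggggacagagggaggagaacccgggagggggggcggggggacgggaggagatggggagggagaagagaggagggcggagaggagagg
Kcnj8: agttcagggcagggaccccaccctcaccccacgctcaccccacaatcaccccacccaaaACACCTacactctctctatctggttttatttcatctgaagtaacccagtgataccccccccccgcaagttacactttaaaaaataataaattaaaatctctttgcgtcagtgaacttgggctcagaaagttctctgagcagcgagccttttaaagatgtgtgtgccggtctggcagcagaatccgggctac
Abcc9: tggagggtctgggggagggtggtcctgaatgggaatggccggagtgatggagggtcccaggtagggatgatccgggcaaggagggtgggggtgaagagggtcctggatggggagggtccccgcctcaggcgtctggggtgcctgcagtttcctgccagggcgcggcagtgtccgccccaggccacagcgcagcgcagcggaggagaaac

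The T-box letters stood 38 to 33 bases before the start of Kcnj3 and 191 to 186 bases before that of Kcnj8, and overlapped no other motif searched. They occurred on either strand in 11.8% of the 250-base upstream windows of 32851 RefSeq promoters (GRCm38.p6). The same search on both strands was made for GATA, spelled AGATAA, whose letters were in 9.99% of those promoters. For MEF2 the letters were TAAAAATA (2.45% of promoters), and for the nuclear receptor motif they were AGGTCA (14%). For NKX2-5 they were TCAAGTG (2.68%). No stretch shown held any of these. G and C made up 58.4% of the bases shown for Kcnj3, 57.8% for Kcnj5, 49.2% for Kcnj8 and 68.4% for Abcc9. The table of promoters held 7 of the 10 genes. A match of letters is a description and not a bound site.

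Levels within a chamber were compared between genes in TPM, over the 18 libraries of all 6 cohorts. In the ventricle Abcc9 (lowest 59.5, median 86.4 and highest 101.3 TPM), Kcnk3 (58.2, 80.0 and 98.0 TPM) and Kcnj11 (52.9, 67.3 and 77.2 TPM) were the most abundant, and their ranges overlapped. Kcnj5 followed with 24.4, 33.5 and 40.6 TPM, Kcnj3 with 16.6, 23.0 and 32.1 TPM, Kcnj12 with 17.96, 21.8 and 29.3 TPM, Kcnj2 with 10.8, 13.6 and 18.3 TPM and Kcnj8 with 9.57, 13.1 and 17.1 TPM. Each of these overlapped its neighbour in the order. Kcnn2 (2.97, 4.0 and 5.67 TPM) lay below all of them.

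The order differed in the atria. Kcnj5 (161, 228 and 255 TPM) and Kcnj3 (181, 222 and 303 TPM) were first, with overlapping ranges, above Kcnk3 (90.3, 124 and 155 TPM) and Kcnj11 (83.1, 96.3 and 107 TPM), which overlapped each other. Kcnj12 (28.9, 32.8 and 43.4 TPM), Abcc9 (16.5, 20.3 and 29.9 TPM) and Kcnj2 (12.9, 16.1 and 21.6 TPM) each overlapped the next, and Kcnn2 (6.43, 8.16 and 9.29 TPM) and Kcnj8 (5.31, 6.85 and 9.31 TPM) came below. Kcnn3 was scarce in both chambers, at 0.11 to 0.84 TPM in the ventricle and 0.14 to 0.51 TPM in the atria, or 19 to 126 counts per library, so its fold changes had standard errors of 0.44 to 0.47 on the log2 scale.

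**Figure D1:**
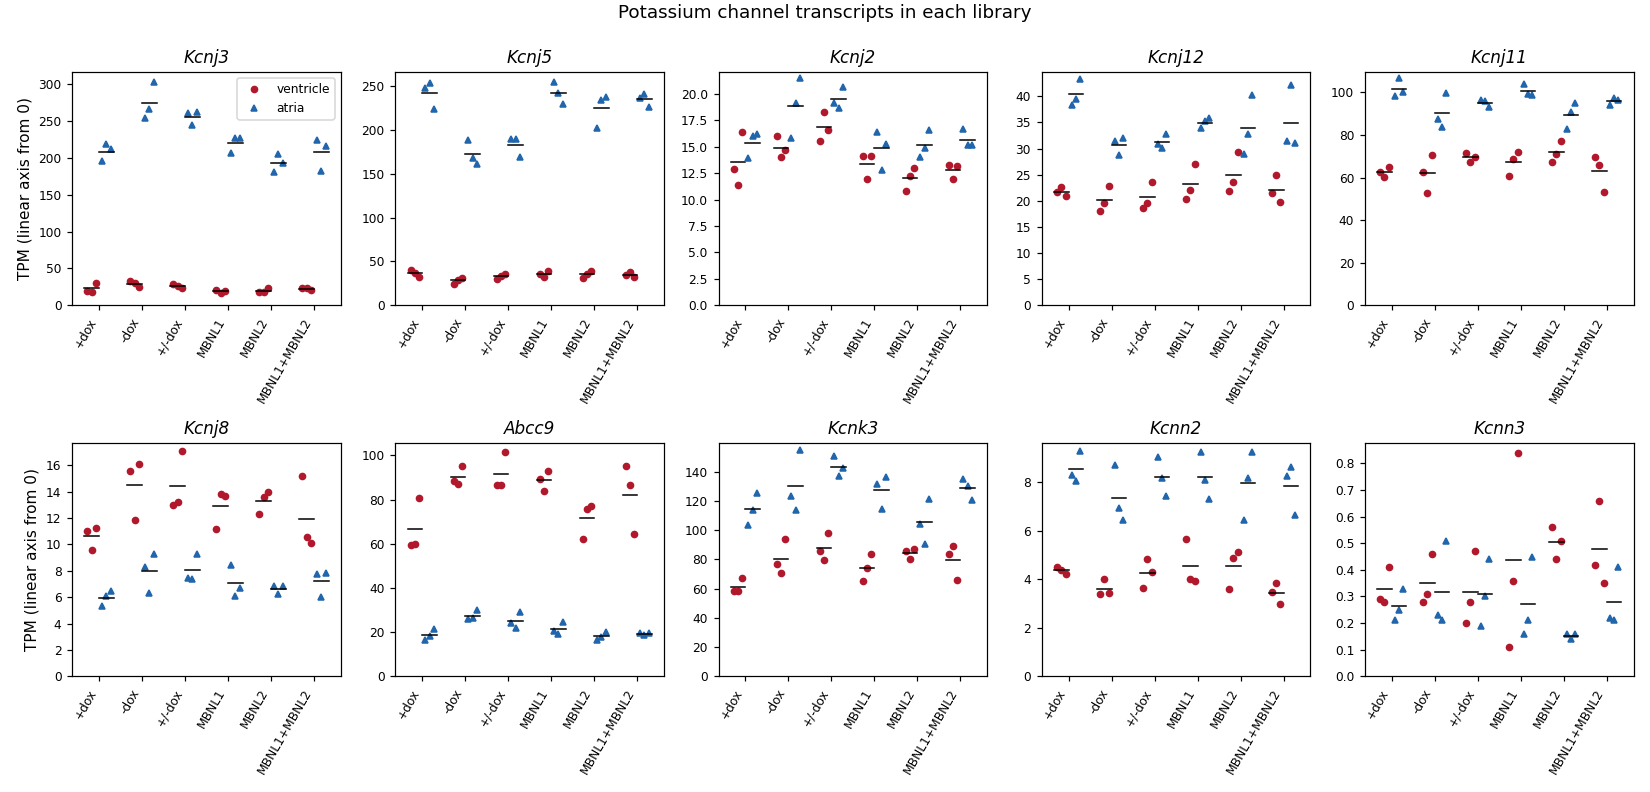
TPM of the 10 potassium channel transcripts (linear vertical axes from 0) in each library of the 6 cohorts on the horizontal axis, with circles for ventricle, triangles for atria and a bar at the mean of 3 libraries. Kcnj3 and Kcnj5 lay above 160 TPM in atria and below 41 TPM in ventricle in every library, and Abcc9 had the opposite arrangement, with 16.5 to 29.9 TPM in atria and 59.5 to 101.3 TPM in ventricle.

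Atria and ventricle were compared in the –dox cohort and again in the +dox cohort to see how far these channels differed between chambers without and with CUGexp RNA. Kcnj3 was 6.76-fold higher in atria in –dox mice (log2 fold change 2.76 ± 0.16, SE) and 6.33-fold higher in +dox mice (2.66 ± 0.16). Kcnj5 was 4.21-fold higher (2.07 ± 0.12) and 4.54-fold higher (2.18 ± 0.12). Kcnj8 was 2.64-fold lower in atria in –dox mice and 2.58-fold lower in +dox mice, and Abcc9 was 4.70-fold and 5.08-fold lower. For each of the 4 genes the atrial and ventricular libraries did not overlap in either cohort. Abcc8, the other sulfonylurea receptor, had the opposite chamber difference to Abcc9 (log2 fold change 1.41 ± 0.10 in –dox and 1.48 ± 0.10 in +dox mice, atria over ventricle). Over all cohorts the TPM of Abcc8 divided by that of Abcc9 was 0.107 to 0.152 in ventricle and 1.53 to 2.14 in atria.

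These values are from edgeR's quasi-likelihood test on the counts, fitted over all 36 libraries with 1 mean per chamber and cohort, and every adjusted p in the text is from that test with Benjamini-Hochberg adjustment over the 19231 genes of 1 comparison, unless another is named. A gene is said to be called when its adjusted p was below 0.05 and its fold change at least 1.5 in either direction, and to have risen or fallen when its adjusted p was below 0.05 whatever its fold. By the first rule 5 of the 10 genes were called between the chambers in –dox mice (3 higher and 2 lower in atria), where 24.9% of all tested genes were called, and 4 in +dox mice, where 25% were. By adjusted p alone the counts were 5 (42.6% of all genes) and 8 (43.6%). Kcnn2 was the member called in –dox mice and not in +dox mice, at 1.50-fold (adjusted p = 0.00159) and 1.44-fold (adjusted p = 0.00360) higher in atria. It stood at the fold threshold in –dox mice, and was not called there without ventricular replicate 1 or 3 or atrial replicate 1, with DESeq2, with upper-quartile factors, with only the libraries compared, with the library set as a term, or with the animal as a block. Since atria and ventricles were paired by animal, the chambers were also compared with the animal as a block. By the 1.5-fold rule 4 members were then called in –dox mice (Kcnn2, at 0.58 ± 0.11 with adjusted p = 0.000135, was not) and 5 in +dox mice, where Kcnn3 was added (−0.86 ± 0.33, adjusted p = 0.0371). By adjusted p alone 6 passed in –dox mice, Kcnk3 being added (0.15 ± 0.06, adjusted p = 0.0396), and 10 in +dox mice, Kcnj11 (0.16 ± 0.06, adjusted p = 0.0389) and Kcnn3 being added. The Kcnj12 and Kcnk3 log2 differences were 0.07 and 0.16 in –dox mice and, in +dox mice, 0.35 ± 0.11 (adjusted p = 0.00763) and 0.36 ± 0.08 (adjusted p = 0.000770). Kcnj11 differed by 0.00 ± 0.08 and 0.16 ± 0.08.

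The direction for Kcnj2 depended on the scale. It was lower in atria by the count test (−0.21 ± 0.10, adjusted p = 0.0918, in –dox mice and −0.35 ± 0.10, adjusted p = 0.00480, in +dox mice) and higher in atria on log2(TPM + 0.1), by 0.32 and 0.19. On that TPM scale the median of all genes was itself 0.50 higher in atria in –dox mice and 0.47 higher in +dox mice, and relative to this shift Kcnj2 was −0.17 and −0.28. Relative to the same shift Kcnj3 was 2.77 and 2.76, Kcnj5 2.12 and 2.27, Kcnj8 −1.36 and −1.30, and Abcc9 −2.21 and −2.29. Without allowing for the shift, the members called on log2(TPM + 0.1) were 5 higher and 2 lower in atria in –dox mice and 6 higher and 2 lower in +dox mice.

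**Figure D2:**
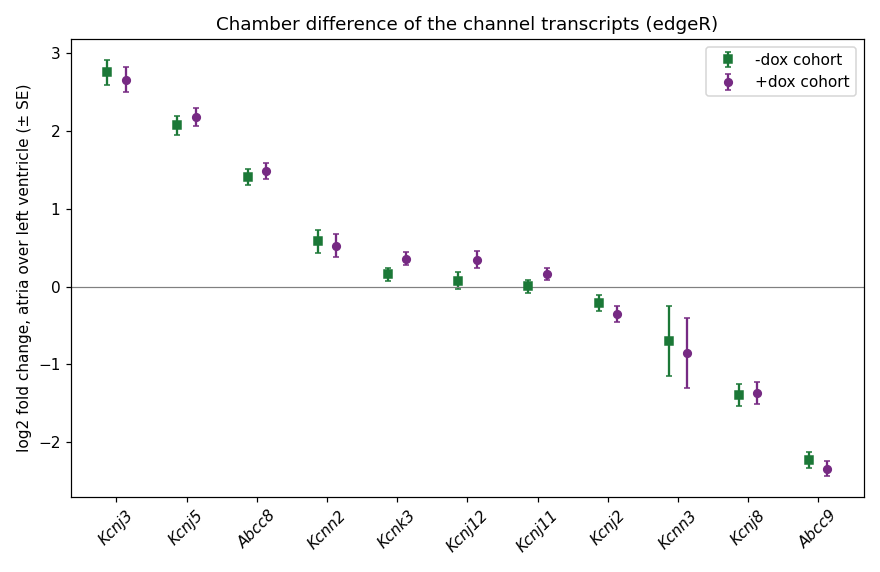
log2 fold change of each channel transcript in atria over left ventricle (vertical axis, edgeR, bars ± SE) in the –dox cohort (squares) and the +dox cohort (circles), 3 libraries per chamber and cohort. Kcnj3, Kcnj5 and Abcc8 lay above 1.4 and Kcnj8 and Abcc9 below −1.3 in both cohorts.

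The –dox and +dox cohorts were compared within each chamber to see how these transcripts differed in the presence of CUGexp RNA. In the ventricle none of the 10 genes was called, where 7.6% of all genes were, and none was called by DESeq2 either. At an adjusted p below 0.05 alone 4 passed (20.9% of all genes), 3 of them higher and 1 lower in –dox mice, and 6 had an unadjusted p below 0.05. In the atria none was called (5.23% of all genes), by DESeq2 none, and 6 passed by adjusted p alone (15.9% of all genes), 4 higher and 2 lower, with 7 at an unadjusted p below 0.05. The median log2 fold change of the 10 genes was 0.16 in ventricle and 0.26 in atria, beside 0.01 and 0.03 for all tested genes.

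Abcc9, the SUR2 receptor, had the largest change in atria. Its ventricular level was 59.5, 60.1 and 80.8 TPM in +dox mice and 88.4, 86.8 and 95.4 TPM in –dox mice, and its atrial level was 16.5, 18.3 and 21.5 TPM against 26.0, 26.4 and 29.9 TPM. In both chambers every –dox library lay above every +dox library. The log2 fold change was 0.46 ± 0.10 in ventricle (adjusted p = 0.000669) and 0.58 ± 0.10 in atria (1.49-fold, adjusted p = 7.38e-05). Kcnj8, the Kir6.1 pore, was at 11.04, 9.57 and 11.3 TPM in ventricular +dox and 15.6, 11.9 and 16.1 TPM in –dox libraries. In atria it was at 5.31, 6.06 and 6.45 TPM against 8.25, 6.33 and 9.30 TPM, where the second –dox library fell within the +dox range on this scale. It rose in –dox mice by 0.50 ± 0.14 in ventricle (adjusted p = 0.00868) and by 0.47 ± 0.14 in atria (adjusted p = 0.0197). The other ATP-sensitive pore, Kcnj11, did not pass in either chamber (0.02 ± 0.08 and −0.14 ± 0.08).

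In –dox mice the known pericyte markers moved with Kcnj8 and Abcc9. Of 8 pericyte genes other than these (Pdgfrb, Cspg4, Rgs5, Vtn, Higd1b, Notch3, Mcam and Ndufa4l2), 6 rose in ventricular and 5 in atrial –dox libraries, with medians of 0.47 and 0.43 on the log2 scale. By adjusted p alone 20.9% and 15.9% of all genes passed, in either direction. Their summed level was 154 to 178 TPM in ventricular +dox against 210 to 231 TPM in –dox libraries, and 107 to 116 TPM against 136 to 170 TPM in atria. Of 5 endothelial genes (Pecam1, Cdh5, Kdr, Tie1 and Emcn) 4 rose in each chamber, of 4 fibroblast genes 1 in ventricle and 3 in atria, and of 4 smooth muscle genes none. The pericyte sum was also lower in atria than in ventricle, and 6 of the 8 genes were lower in atria by adjusted p in –dox mice. Of all genes 42.6% passed there, in either direction. Rgs5 was the most abundant of the 8, with a median of 118 TPM in ventricle and 48.5 TPM in atria over all cohorts. Mcam went the other way, at 7.70 to 21.2 TPM in ventricle and 26.3 to 50.5 TPM in atria. Cspg4 overlapped between the chambers, at 2.92 to 6.16 and 3.74 to 5.69 TPM. No pericyte marker was at 0. In MBNL2 ventricles the pericyte sum was 196 to 212 TPM, above every +dox library. Abcc9 there was at 62.3, 75.8 and 76.9 TPM, within the +dox range, while Kcnj8, at 12.3 TPM or more, lay above it. The sum was 178 to 213 TPM in MBNL1 ventricles, where Abcc9 rose, and 169 to 200 TPM in MBNL1+MBNL2 ventricles. In MBNL atria it was 123 to 156 TPM, above every +dox library, while Abcc9 and Kcnj8 overlapped +dox in each cohort. In bulk tissue, fewer cells of a type and less RNA per cell cannot be told apart, and the part of pericytes in the Kcnj8 and Abcc9 values was not tested.

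The GIRK genes moved in opposite directions in atria. Kcnj3 was at 195, 218 and 212 TPM in +dox and 254, 266 and 303 TPM in –dox atria, so each –dox library was higher. Kcnj5 was at 247, 254 and 224 TPM in +dox and 188, 168 and 161 TPM in –dox atria, so each –dox library was lower. The log2 fold changes in –dox atria were 0.46 ± 0.15 for Kcnj3 (adjusted p = 0.0374) and −0.47 ± 0.11 for Kcnj5 (adjusted p = 0.00403). Kcnj5 kept its call by adjusted p in 15 of 15 alternative fits, and Kcnj3 in 7. Kcnj3 missed it without any 1 of the 6 libraries compared, without the filter on low counts (adjusted p = 0.104), and with a replicate block (adjusted p = 0.0515).

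In the ventricle Kcnj5 fell as well in –dox mice (40.6, 36.6 and 31.7 TPM in +dox against 24.4, 29.0 and 30.9 TPM in –dox, −0.37 ± 0.12, adjusted p = 0.0223). The call was lost without +dox replicate 1 or 2 or –dox replicate 1. Ventricular Kcnj3 was at 19.8, 18.4 and 29.9 TPM in +dox and 32.1, 29.3 and 23.9 TPM in –dox libraries (0.36 ± 0.15, adjusted p = 0.0926). The third +dox library stood apart from the other two for Kcnj3, Kcnj5 and Abcc9. Without it 5 of the 10 genes passed by adjusted p in the ventricle in place of 4, and Kcnj3 (0.59 ± 0.15, adjusted p = 0.00591) and Abcc9 (0.59 ± 0.10, adjusted p = 5.66e-05) were called. It was the library of its group in set B and with Xist RNA. The –dox library of that kind was kept, so sex and library set were then unbalanced.

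The balance of the paired subunits was followed as the TPM of Kcnj3 divided by that of Kcnj5, a measure chosen after the values were seen. In atria it was 0.789, 0.859 and 0.948 in +dox, 1.35, 1.58 and 1.88 in –dox, and 1.38, 1.29 and 1.55 in +/–dox libraries. Every atrial library with the repeats off was above 1 and every +dox library below 1. The ratio was 1.84-fold higher in –dox and 1.62-fold higher in +/–dox than in +dox atria, with an exact two-sided permutation p of 0.1 in each case, the smallest that 3 against 3 libraries allow (0.229 after adjustment over 16 comparisons). In the MBNL1 cohort the atrial ratio was 0.814, 0.934 and 0.986, in MBNL2 0.894, 0.878 and 0.816, and in MBNL1+MBNL2 0.949, 0.753 and 0.955. Each of these 9 libraries was below 1. In the ventricle the +dox ratios were 0.487, 0.503 and 0.943 and the –dox ratios 1.32, 1.01 and 0.774, which overlapped (exact permutation p = 0.2).

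**Figure D3:**
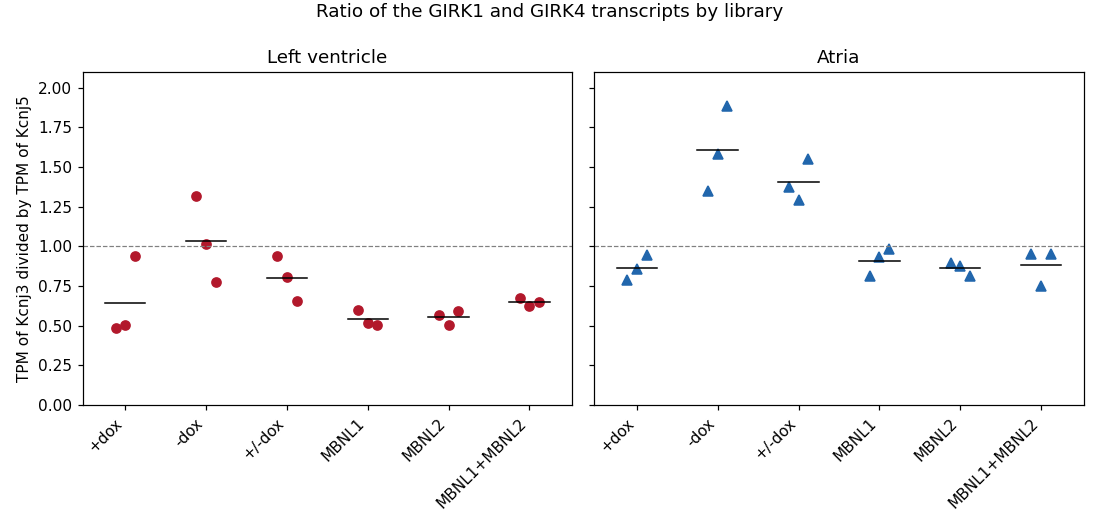
TPM of Kcnj3 divided by TPM of Kcnj5 (vertical axis from 0) in each library of the 6 cohorts, ventricle on the left and atria on the right, with a bar at the mean and a dashed line at 1. In atria the –dox and +/–dox libraries lay between 1.29 and 1.88, and the +dox and MBNL libraries between 0.753 and 0.986.

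Kcnk3 (TASK-1) rose in the ventricle, from 58.5, 58.2 and 67.0 TPM in +dox to 77.1, 70.4 and 93.6 TPM in –dox mice (0.42 ± 0.08, adjusted p = 0.000479). In atria it was at 103.8, 114 and 125 TPM in +dox and 123, 113 and 155 TPM in –dox libraries, which overlapped in TPM (0.22 ± 0.08, adjusted p = 0.0714). The Kir2 genes moved in opposite directions in atria, where Kcnj2 rose by 0.32 ± 0.10 (adjusted p = 0.0257) and Kcnj12 changed by −0.36 ± 0.11 (adjusted p = 0.0175). Kcnj12 was at 38.4, 39.5 and 43.4 TPM in +dox and 31.5, 28.9 and 32.0 TPM in –dox atria, with every –dox library lower. Kcnj2 was at 13.9, 16.0 and 16.2 TPM against 15.8, 19.2 and 21.6 TPM. In ventricle neither passed (0.18 ± 0.10 and −0.09 ± 0.11). Kcnn2 was at −0.31 ± 0.15 in ventricle (adjusted p = 0.146) and −0.25 ± 0.15 in atria (adjusted p = 0.268).

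Abcc9 and Kcnk3 in the ventricle and Abcc9 and Kcnj5 in the atria passed by adjusted p in all 15 alternative fits of this comparison. The other calls rested on single libraries. Ventricular Kcnj8 was lost without –dox replicate 1, atrial Kcnj8 without +dox replicate 1 or –dox replicates 1 or 3, atrial Kcnj12 without +dox replicate 1 or –dox replicates 2 or 3, and atrial Kcnj2 without +dox replicates 1 or 3 or –dox replicates 2 or 3. With the library set as a term the same members passed in ventricle, and in atria Kcnk3 passed besides (0.22 ± 0.08, adjusted p = 0.0391). The difference between the chambers in the size of the change was tested as an interaction, and no member was called, where 0.764% of all genes were. The smallest adjusted p was 0.531, none had an unadjusted p below 0.05, and DESeq2 called none. With the animal as a block the smallest adjusted p was 0.211 (Kcnj12, −0.27 ± 0.11).

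The +/–dox cohort shows the transcripts 12 weeks after the CUGexp RNA was turned off. Compared with the same +dox libraries, no member was called in ventricle (6.6% of all genes) or atria (3.99%), by edgeR or by DESeq2. By adjusted p alone 4 rose in ventricle (21.8% of all genes), which were Kcnj2 (0.33 ± 0.10, adjusted p = 0.0191), Kcnj8 (0.46 ± 0.14, adjusted p = 0.0139), Abcc9 (0.43 ± 0.10, adjusted p = 0.00141) and Kcnk3 (0.52 ± 0.08, adjusted p = 4.13e-05). In atria 5 passed (12.6% of all genes). Kcnj2 (0.40 ± 0.10, adjusted p = 0.00749), Kcnj8 (0.50 ± 0.14, adjusted p = 0.0161), Abcc9 (0.44 ± 0.10, adjusted p = 0.00209) and Kcnk3 (0.39 ± 0.08, adjusted p = 0.00197) rose and Kcnj5 fell (−0.37 ± 0.11, adjusted p = 0.0306). Atrial Kcnj12 (−0.31 ± 0.11) missed at an adjusted p of 0.05003. Pericyte markers moved here too, with 5 of 8 higher in ventricle and 4 of 8 in atria.

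The levels after withdrawal stood close to those of mice never induced. Ventricular Kcnk3 was at 85.4, 79.5 and 98.0 TPM, above every +dox library, and ventricular Abcc9 at 86.4, 86.8 and 101.3 TPM. Atrial Kcnj3 was at 262, 245 and 262 TPM and atrial Kcnj5 at 190.2, 190.0 and 169 TPM, with the +/–dox and +dox libraries apart for both. By adjusted p against +dox, atrial Kcnj5 passed and atrial Kcnj3 did not. In a direct comparison of –dox with +/–dox mice no member was called, where 0.0312% of all genes were called in ventricle and 0.0104% in atria. One member in ventricle and 0 in atria had an unadjusted p below 0.05, and DESeq2 called none. A p above the threshold does not show that the cohorts were equal. For the +/–dox change no member had a called interaction with chamber (0.489% of all genes), at adjusted p of 0.494 and above, with none under an unadjusted p of 0.05 and none called by DESeq2. With the animal as a block the smallest was 0.254 (Kcnj11, −0.20 ± 0.09).

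Calls after withdrawal that were lost without single libraries were ventricular Kcnj2 (+dox replicates 1 or 2 or +/–dox replicate 2), ventricular Kcnj8 (+dox replicate 2 or +/–dox replicate 3), atrial Kcnj5 (+dox replicates 1 or 2 or +/–dox replicates 1 or 3) and atrial Kcnj8 (+dox replicate 1 or +/–dox replicate 3). Abcc9 in both chambers and ventricular Kcnk3 passed in all 15 alternative fits.

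**Figure D4:**
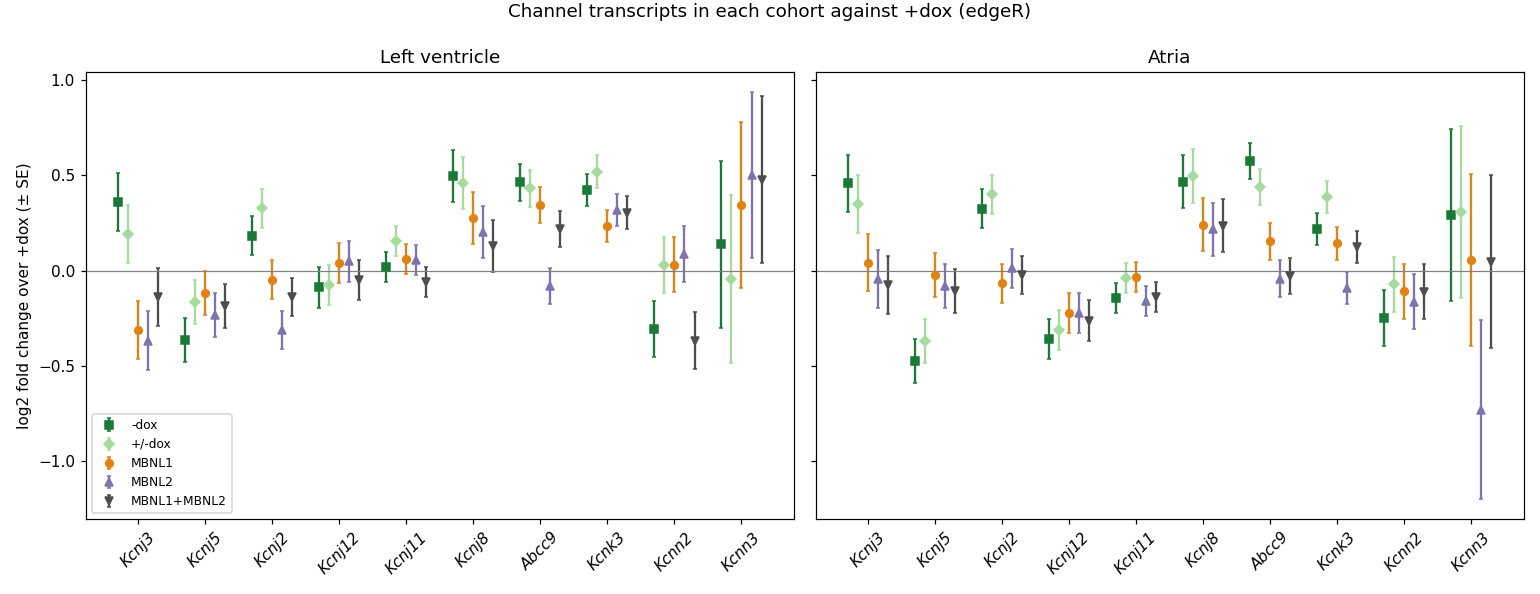
log2 fold change over +dox (vertical axis, edgeR, bars ± SE) of the 10 channel transcripts in the –dox, +/–dox and 3 MBNL cohorts, ventricle on the left and atria on the right, 3 libraries per group. In atria Kcnj5 lay at −0.47 in –dox and −0.37 in +/–dox mice and between −0.11 and −0.02 in the MBNL cohorts, and Abcc9 at 0.58 and 0.44 against −0.04 to 0.15.

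The MBNL cohorts were compared with +dox mice to see which transcripts moved when MBNL was added with the repeats still on. In the ventricle no member was called in MBNL1 (2.66% of all genes), MBNL2 (1.52%) or MBNL1+MBNL2 mice (2.65%), by edgeR or DESeq2. By adjusted p alone 1 member passed in each, where 8.95%, 7.43% and 8.34% of all genes did. It was Abcc9 in MBNL1 mice (89.5, 83.8 and 92.8 TPM against 59.5, 60.1 and 80.8 TPM in +dox mice, 0.34 ± 0.10, adjusted p = 0.0214). It was Kcnk3 in MBNL2 mice (85.6, 80.5 and 87.3 TPM, 0.32 ± 0.08, adjusted p = 0.0190) and in MBNL1+MBNL2 mice (83.5, 88.9 and 65.7 TPM, 0.31 ± 0.08, adjusted p = 0.0209). The MBNL2 libraries of Kcnk3 lay above every +dox library.

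Each of these 3 calls was lost without some single library. For Abcc9 these were +dox replicates 1 and 2 and MBNL1 replicate 1, the library with fewer genes detected, without which the adjusted p was 0.0864. For Kcnk3 they were +dox replicate 1 and, in MBNL2 mice, replicates 1 and 3 or, in MBNL1+MBNL2 mice, replicates 1 and 2. With the library set as a term Kcnk3 also passed in MBNL1 mice (0.23 ± 0.08, adjusted p = 0.0388). Ventricular Kcnj2 was at 10.8, 12.3 and 12.98 TPM in MBNL2 and 12.9, 11.4 and 16.4 TPM in +dox mice (−0.31 ± 0.10, adjusted p = 0.0556). The MBNL2 mean was below that of +dox mice, and the –dox and +/–dox means were above it. In TPM the libraries of each of these cohorts overlapped +dox, and the –dox change did not pass. Kcnj2 in MBNL2 ventricles passed with the library set as a term (−0.31 ± 0.10, adjusted p = 0.0462) and without +dox replicate 2 (−0.39, adjusted p = 0.0308).

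In the atria no member was called in MBNL1 (0.13% of all genes), MBNL2 (0.0052%) or MBNL1+MBNL2 mice (0.26%), and none passed by adjusted p alone, where 0.348%, 0.0104% and 0.686% of all genes did. The adjusted p of the 10 genes was between 0.369 and 1 over the 3 cohorts, 1 member in each had an unadjusted p below 0.05, and DESeq2 called none. Atrial Kcnj5 was at 255, 243 and 230.0 TPM in MBNL1, 203, 235 and 238 TPM in MBNL2 and 237, 242 and 227 TPM in MBNL1+MBNL2 mice. These levels overlapped the 224 to 254 TPM of +dox mice, and each library was above the 161 to 188 TPM of –dox mice. Atrial Abcc9 was at 20.6, 19.2 and 24.7 TPM, 16.6, 17.6 and 20.1 TPM, and 19.5, 18.7 and 19.6 TPM in the same cohorts.

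Kcnj11, Kcnn2 and Kcnn3 passed by adjusted p in none of the 10 comparisons with +dox, over both chambers and 5 cohorts. Kcnj11, the abundant Kir6.2 pore, was at 62.5, 60.4 and 64.9 TPM in +dox ventricles and ranged from 52.9 to 77.2 TPM over the chamber, and its log2 fold changes lay between −0.16 and 0.16 (adjusted p of 0.159 and above). By the count test its largest ventricular difference was in +/–dox mice, at 71.6, 67.2 and 69.7 TPM, all above the +dox libraries. In TPM the highest mean was in MBNL2 ventricles, at 67.45, 71.2 and 77.2 TPM, also all above the +dox libraries. Kcnn2 was at 4.52, 4.39 and 4.21 TPM in +dox, 3.39, 4.0 and 3.42 TPM in –dox, and 3.49, 3.85 and 2.97 TPM in MBNL1+MBNL2 ventricles. The +dox libraries lay above those of both other cohorts, with log2 fold changes of −0.31 ± 0.15 (adjusted p = 0.146) and −0.37 ± 0.15 (adjusted p = 0.129). At this number of libraries, changes of that size in Kcnn2 were not separable from the spread after adjustment over all genes.

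The MBNL cohorts were then set against +/–dox mice, in which the repeats were off for the 12 weeks that the vectors were expressed. This comparison shares its +/–dox libraries among the 3 cohorts. Kcnj2 was lower than in +/–dox mice in every one of the 6 tests. In ventricle it was at 15.6, 18.3 and 16.6 TPM in +/–dox mice, at 14.1, 11.9 and 14.1 TPM in MBNL1 (−0.37 ± 0.10, adjusted p = 0.0407), at 10.8, 12.3 and 12.98 TPM in MBNL2 (−0.64 ± 0.10, adjusted p = 0.000198) and at 13.3, 11.9 and 13.2 TPM in MBNL1+MBNL2 mice (−0.47 ± 0.10, adjusted p = 0.0123). The +/–dox libraries were above all 9 others. In atria the log2 differences were −0.47 ± 0.10 (adjusted p = 0.00533), −0.39 ± 0.10 (adjusted p = 0.0112) and −0.42 ± 0.10 (adjusted p = 0.00902), with +/–dox levels of 19.2, 18.7 and 20.6 TPM and MBNL levels from 12.9 to 16.7 TPM.

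Kcnj2 in MBNL2 ventricles, 1.56-fold lower, was the only member called in these 6 tests. The share of all genes called was 0.868%, 1.57% and 0.53% in ventricular and 1.21%, 3.24% and 1.71% in atrial MBNL1, MBNL2 and MBNL1+MBNL2 mice. By adjusted p alone the members numbered 1, 3 and 1 in ventricle (2.67%, 5.39% and 1.77% of all genes) and 1, 3 and 2 in atria (4.6%, 11% and 6.86%). Besides Kcnj2, these were Abcc9 in MBNL2 ventricles (−0.51 ± 0.10, adjusted p = 0.00115) and atria (−0.48 ± 0.10, adjusted p = 0.00109) and in MBNL1+MBNL2 atria (−0.47 ± 0.10, adjusted p = 0.00231), Kcnj3 in MBNL2 ventricles (−0.56 ± 0.15, adjusted p = 0.0281) and Kcnk3 in MBNL2 atria (−0.48 ± 0.08, adjusted p = 0.000285). The DESeq2 count of called members was 1, that in MBNL2 ventricles.

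Kcnj2 in MBNL2 ventricles passed by adjusted p in all 15 alternative fits (−0.69 to −0.45), and fell below the 1.5-fold threshold without MBNL2 replicate 1 or +/–dox replicate 2 and on the TPM scales. Its call by adjusted p in MBNL1 ventricles was the least stable, kept in 5 of 15 fits and lost without any 1 of the +/–dox libraries or of MBNL1 replicates 2 and 3. Ventricular Kcnj3 in MBNL2 mice was lost without MBNL2 replicates 1 or 2 or +/–dox replicates 1 or 2. The remaining Kcnj2 calls were lost without +/–dox replicate 2 (ventricle MBNL1+MBNL2 and atria MBNL2), ventricular MBNL1+MBNL2 replicate 2, atrial MBNL1 replicate 2, atrial MBNL2 replicate 1, and atrial MBNL1+MBNL2 replicates 2 or 3. The number of members past the adjusted p moved with the fit, over 15 alternatives, from 0 to 3, 2 to 3 and 0 to 4 in ventricular and from 0 to 4, 2 to 5 and 1 to 4 in atrial MBNL1, MBNL2 and MBNL1+MBNL2 mice. In ventricle it was 2 in MBNL1 mice without MBNL1 replicate 1, where Kcnj3 was added, and 4 in MBNL1+MBNL2 mice without replicate 1 of that cohort, where Kcnj8, Kcnj11 and Abcc9 were added. In MBNL1+MBNL2 atria it was 3 without replicate 1, where Kcnk3 was added, and 1, Abcc9, without replicate 2 or 3. With the library set as a term the counts were 2, 3 and 3 in ventricle and 4, 3 and 4 in atria. The term was estimated in the 5 cohorts where set B was the library with Xist RNA. MBNL1+MBNL2 libraries were all in set B without Xist RNA, so for that cohort the fit cannot separate library set from sex. Against +/–dox, 279 in place of 102 genes were then called in its ventricles and 596 in place of 328 in its atria.

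The remaining inward rectifier, K2P and SK genes and Abcc8 formed a list of 25, of which 13 passed the filter. In –dox against +dox mice 2 were called in ventricle (7.6% of all genes) and 3 in atria (5.23%), each of them lower. Median log2 fold changes of the list were −0.12 and −0.06, beside 0.01 and 0.03 for all genes. Kcnj14, which encodes the inward rectifier Kir2.4, was at 9.53, 6.06 and 4.81 TPM in +dox and 2.43, 2.59 and 1.13 TPM in –dox ventricles (−1.68 ± 0.47, adjusted p = 0.0121). In atria it was at 2.27, 2.25 and 1.21 TPM against 0.60, 0.63 and 0.20 TPM (−1.96 ± 0.53, adjusted p = 0.0124). Replicate 3, the library of set B and with Xist RNA, was the lowest of its group in all 4 of these groups, and the part of either in its level was not tested. The Kcnj14 calls were lost without +dox replicate 1 or –dox replicate 3 in either chamber.

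Kcnk1, which encodes the K2P channel TWIK-1, was at 3.29, 5.37 and 2.71 TPM in +dox and 1.42, 0.49 and 0.59 TPM in –dox ventricles (−2.07 ± 0.53, adjusted p = 0.00594). Its atrial levels were 1.05, 0.81 and 0.43 TPM against 0.07, 0.11 and 0.10 TPM, with no overlap in either chamber (−3.07 ± 0.68, adjusted p = 0.00221). The SK1 gene Kcnn1 was called in atria, at 9.19, 9.50 and 10.2 TPM in +dox and 5.71, 5.77 and 7.04 TPM in –dox libraries (−0.64 ± 0.11, adjusted p = 0.000103), and was −0.18 ± 0.11 in ventricle (adjusted p = 0.279), while the difference between the chambers did not pass (adjusted p = 0.169). In the atrial MBNL cohorts Kcnn1 was between 7.40 and 11.9 TPM, above all 3 –dox libraries. Abcc8 rose in –dox mice by 0.48 ± 0.10 in ventricle (adjusted p = 0.000815) and by 0.40 ± 0.10 in atria (adjusted p = 0.00477). Kcnk6 rose in ventricle (0.43 ± 0.12, adjusted p = 0.00960) and was 0.02 ± 0.12 in atria.

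After withdrawal 2 genes of this list were called higher in ventricle (6.6% of all genes called), Abcc8 (0.69 ± 0.10, adjusted p = 1.02e-05) and Kcnk2 (0.76 ± 0.28, adjusted p = 0.0469), the latter lost in 8 of 15 alternative fits. In atria 3 were called lower (3.99% of all genes called), and these were again Kcnj14, Kcnk1 and Kcnn1. None was called in any MBNL cohort against +dox, where 0.0052% to 2.66% of all genes were. Against +/–dox mice 3 were called higher in atria in each MBNL cohort and none in ventricle. The shares of all genes called there were 1.21%, 3.24% and 1.71% in MBNL1, MBNL2 and MBNL1+MBNL2 atria and 0.868%, 1.57% and 0.53% in ventricle. Between the chambers 9 were called in each cohort, 3 higher and 6 lower in atria in –dox mice and 4 higher and 5 lower in +dox mice, where 24.9% and 25% of all genes were called.

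The partners of these channels were followed as a list of 23 receptors, G proteins, regulators and scaffolds, all of which passed the filter. In –dox against +dox mice 1 was called higher and 2 lower in ventricle (7.6% of all genes called), and 1 higher and 3 lower in atria (5.23%). The list's medians were 0.10 and −0.07. Adora1, the adenosine A1 receptor that signals to GIRK channels, was at 13.7, 12.5 and 9.71 TPM in +dox and 5.35, 7.13 and 7.40 TPM in –dox ventricles, and at 26.3, 23.8 and 21.8 TPM against 13.1, 9.88 and 11.1 TPM in atria. It was lower by −0.93 ± 0.18 (adjusted p = 0.000332) and −1.18 ± 0.18 (adjusted p = 2.42e-05), and was called after withdrawal in both chambers too (−0.68 ± 0.17 and −0.79 ± 0.17). Adora1 overlaps Mybph on the opposite strand, and reads of the pair are separated only if the counting used strand, which is not given in the sources used here. The same limit holds for the members Abcc9, Kcnj3, Kcnk3 and Kcnn2. It also holds for Kcnk1, Kcnk2, Kcnn1 and Abcc8 and for the partners Rgs6, Popdc3 and Chrm2. Each of these members, channel genes and partners overlaps 1 or more annotated genes on the opposite strand, none of them protein-coding.

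Rgs6, which speeds the closing of GIRK channels by turning off the G protein, was at 18.4, 16.5 and 18.8 TPM in +dox and 10.1, 8.71 and 11.2 TPM in –dox ventricles (−0.77 ± 0.10, adjusted p = 2.54e-06). In atria it fell less than 1.5-fold (−0.43 ± 0.10, adjusted p = 0.00334). Rgs6 was the only partner called in an MBNL cohort against +dox, in MBNL1+MBNL2 ventricles, at 9.59, 13.2 and 10.5 TPM (−0.70 ± 0.10, adjusted p = 5.54e-05). Of all genes 2.65% were called there, and 0.0052% to 2.66% over the MBNL comparisons with +dox. Rgs4, a related regulator, was called higher in –dox mice in both chambers at 1.50-fold (0.59 ± 0.14), in 7 and 8 of 15 alternative fits. The M2 receptor gene Chrm2 was chosen for naming after its values were seen, and was higher in atria by 1.46 and 1.41 on the log2 scale in –dox and +dox mice.

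Popdc3 encodes a Popeye domain protein, a family that binds cyclic AMP and the K2P channel TREK-1. It was at 23.7, 24.1 and 22.8 TPM in +dox and 9.80, 9.45 and 11.9 TPM in –dox atria (−1.13 ± 0.13, adjusted p = 1.72e-07), and at 21.1, 19.2 and 20.7 TPM against 13.8, 17.3 and 17.4 TPM in ventricle (−0.27 ± 0.13, adjusted p = 0.121). The difference between the chambers was called as an interaction (−0.85, adjusted p = 0.00983). In the 9 atrial MBNL libraries Popdc3 was between 18.7 and 23.1 TPM, above every –dox library. The caveolar protein gene Cav3 was called lower in –dox atria (−0.63 ± 0.12, adjusted p = 0.000410), a call lost without +dox replicate 1 or –dox replicate 3, and fell by less than 1.5-fold in ventricle (−0.54 ± 0.12, adjusted p = 0.00164). The scaffold Actn2 and Popdc2, the most abundant of the list, did not pass in either chamber, at 0.18 and −0.21 in ventricle and 0.15 and −0.20 in atria.

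**Figure D5:**
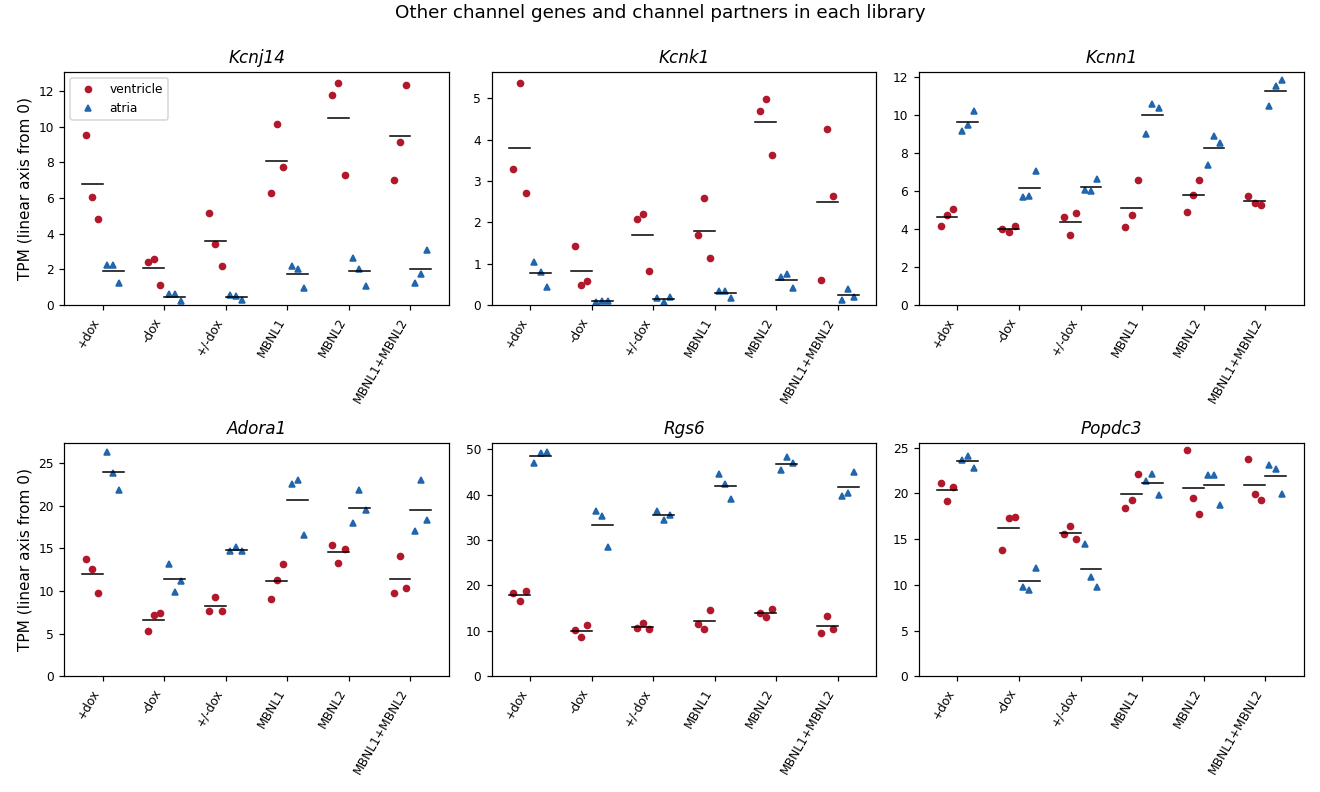
TPM (linear vertical axes from 0) of Kcnj14, Kcnk1, Kcnn1, Adora1, Rgs6 and Popdc3 in each library of the 6 cohorts, with circles for ventricle, triangles for atria and a bar at the mean of 3 libraries. In atria Popdc3 lay between 9.45 and 14.4 TPM in –dox and +/–dox libraries and between 18.7 and 24.1 TPM in the others.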

How the data were processed

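RNA-seq libraries of left ventricle and atria were prepared from total RNA, and every library stands for 1 animal and chamber. The study's list of samples gives the same animals, in the same order, for atria and ventricles of a cohort. The residuals of these pairs correlated at 0.0407 to 0.257 (median 0.13, 18 pairs), against a median of −0.08 for other atria and ventricles of the cohort. The deposited tables hold estimated counts (expected counts) and TPM per gene, which the authors made with STAR 2.7.10b and RSEM 1.3.1 against mm10 and GENCODE M25. The strand setting of the counting is not given in the sources used here. Here counts were rounded and tested with edgeR 4.0.16 (TMM, filterByExpr, robust quasi-likelihood, Benjamini-Hochberg adjustment) in 22 comparisons, as written in the results, and DESeq2 1.42.0 and limma 3.58.1 were run as alternatives in R 4.3.3. Other alternatives were upper-quartile factors, no filter on low counts, only the libraries compared or those of 1 chamber, a replicate block (the animal between chambers), the library set as a term, adjusted p alone, and leaving out each library in turn. The fits were checked on simulated counts. Gene coordinates are from GENCODE M21 (GRCm38), which matched 53292 of the 55291 symbols (96.4%). Genes named outside the 10 members were those called in –dox against +dox mice and the most abundant of each list, with exceptions stated. The members and lists were chosen with earlier results of these data known. The human MBNL and DMPK transgenes were not analysed here.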

Additional observations from a re-analysis of the deposited data

Results flagged for a closer look

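Kcnn3 was picked out because its change in MBNL2 against +dox mice had opposite signs in the chambers in every library. In ventricle it was at 0.56, 0.44 and 0.51 TPM in MBNL2 and 0.29, 0.28 and 0.41 TPM in +dox libraries, a log2 fold change of 0.50. In atria it was at 0.16, 0.14 and 0.16 TPM in MBNL2 and 0.21, 0.25 and 0.33 TPM in +dox libraries, a log2 fold change of −0.73. The difference between the chambers was not tested. Neither change passed on its own, and the gene had 19 to 126 counts per library over the series.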

How the results depend on the processing

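Without the fold cutoff, the members counted against +dox were 4 for –dox, 4 for +/–dox and 1 for each of MBNL1, MBNL2 and MBNL1+MBNL2 in ventricle, and 6 for –dox and 5 for +/–dox in atria. Against +/–dox they were 1, 3 and 1 in ventricle and 1, 3 and 2 in atria for MBNL1, MBNL2 and MBNL1+MBNL2, and between chambers 8 in +dox mice. With upper-quartile factors Abcc9 alone was called in –dox atria, 1 member in place of 0. On log2(TPM + 0.1) and on log2(TPM + 1), 0 members in place of 1 were called in MBNL2 against +/–dox ventricles, and 8 in place of 4 between the chambers in +dox mice. On those scales the sign of Kcnj2 between chambers turned, to 0.32 and 0.31 in –dox and 0.19 and 0.18 in +dox mice, where the median of all genes moved too. In MBNL2 against +/–dox ventricles the median log2 fold change of all genes was 0.13 and 0.07 on those scales, against 0 in the count test. The cause of the other moves was not tested.

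Leaving out 1 library gave 0 to 2 called members for –dox against +dox in ventricle (2, Kcnj3 and Abcc9, without +dox replicate 3, and 1, Kcnj8, without –dox replicate 2) and 0 to 1 in atria (Abcc9 without +dox replicate 3, Kcnj8 without –dox replicate 2). It gave 0 to 1 for MBNL1 against +/–dox in ventricle (Kcnj3 without MBNL1 replicate 1) and 0 to 2 for MBNL2 against +/–dox in ventricle (0 without MBNL2 replicate 1 or +/–dox replicate 2, and Kcnj2 with Kcnj3 without MBNL2 replicate 3 or +/–dox replicate 3). Between chambers it gave 4 to 5 in –dox and 4 to 4 in +dox mice, and for the other comparisons 0. Counts by adjusted p alone over all alternatives, a range chosen after the data were seen, were 2 to 5 in ventricular and 2 to 7 in atrial –dox mice against +dox, and 2 to 5 and 2 to 7 in +/–dox mice. They were 0 to 2 for each MBNL cohort against +dox in ventricle, and 5 to 9 in –dox and 6 to 10 in +dox mice between chambers (6 without ventricular +dox replicate 3).

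With replicate number as a block, 4 members were called between chambers in –dox mice (Kcnn2 was not) and 5 in +dox mice (Kcnn3 was, at −0.86, adjusted p = 0.0371), and 0 in –dox against +dox in either chamber. By adjusted p the block, in the comparisons with +dox, removed Kcnj3 in –dox atria (adjusted p = 0.0515) and added Kcnj12 in +/–dox atria (adjusted p = 0.0372). Against +/–dox it added Kcnj5 in MBNL1 atria (0.35 ± 0.10, adjusted p = 0.0382) and Kcnk3 in MBNL1+MBNL2 atria (−0.26 ± 0.08, adjusted p = 0.0488). Between chambers this block is the animal, and with both chambers of an animal as a block, added after the data were seen, no interaction of the 10 genes was called. Across cohorts a number stands for different animals, and same-numbered libraries of different cohorts deviated together with a median correlation of 0.033, above 0.1 in 25 of 90 pairs.

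Of 3400 refitted log2 fold changes of single genes, 3223 kept direction and side of the threshold, 104 were no longer past it, 69 newly passed it, and 4 turned sign. With 19 to 126 counts per library, Kcnn3 was the least precise of the 10 genes.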
